A study of Mus musculus with 12 samples.

Results

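The 3 control libraries of an RNA-seq series on mouse 3T3-L1 adipocytes were taken here as a reference transcriptome, with no comparison of groups: which genes a mature 3T3-L1 adipocyte holds most RNA of, and which paralog of each gene family it uses. The members were chosen by title, as the libraries of cells given a GFP vector (pCDH), and are 3 of the 12 libraries of the series; the other libraries were made from cells given Dnmt3a or a hairpin and were not analysed here. 3T3-L1 is an established line of mouse preadipocytes, cells committed to the fat lineage that fill with lipid when induced in a dish. All GFP cells were induced with dexamethasone (1 uM), IBMX (0.5 mM) and insulin (5 ug/ml) from day 0 to day 2 and then had insulin for 2 further days. They received the GFP lentivirus on day 8, for 2 days by the labels and for a shorter time by the paper's methods, and were harvested 4 days after transduction. Ribosomal RNA was depleted from 100.0 ng of total RNA, so RNAs without a poly(A) tail could enter the libraries. The control cells therefore carried a virus and expressed GFP, and the labels do not say whether the 3 libraries came from separate cultures: an SD below covers variation among these libraries and may hold technical variation alone.

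White adipocytes store energy as triglyceride in a single large lipid droplet and release it as fatty acids when adrenergic signals activate lipases on the droplet surface. Insulin does the opposite: it brings the glucose transporter GLUT4 to the cell surface and blocks lipolysis. The program is set up by the nuclear receptor PPARγ with C/EBPα, and mature cells secrete hormones such as adiponectin. Many of these steps are carried out by families of paralogs, genes that arose by duplication and encode related proteins, of which each tissue uses its own set.

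Levels are given in TPM, transcripts per 1000000: each library's counts were divided by the length of the feature and scaled to that sum, so that levels can be set side by side between genes. Whether reads can be assigned to the right paralog depends on how alike the transcripts are, and 4 pairs on which the results turn are shown for this reason. Each line is the stretch of 60 coding bases, without gaps, in which the pair matches best in the GENCODE transcripts of the mm9 genome, and capitals mark the bases that differ. Fabp4 (mm9 chr3:10204347-10208576, minus strand) and Fabp5 (chr3:10012548-10016607, plus strand) encode cytosolic carriers of fatty acids and match at 44 of the 60 bases. Scd1 (chr19:44468941-44482199, minus strand) and Scd2 (chr19:44368166-44381354, plus strand) encode desaturases of stearoyl-CoA, and Actb (chr5:143664794-143668433, minus strand) and Actg1 (chr11:120207004-120209856, minus strand) encode the cytoplasmic actins. Cox8a (chr19:7289648-7292106, minus strand) and Cox8b (chr7:148084842-148086345, minus strand) encode forms of a small subunit of cytochrome c oxidase.
Fabp4, coding bases 55 to 114: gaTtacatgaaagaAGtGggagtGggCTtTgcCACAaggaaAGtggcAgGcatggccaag
Fabp5, coding bases 61 to 120: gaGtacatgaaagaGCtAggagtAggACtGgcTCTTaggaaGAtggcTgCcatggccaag
Scd1, coding bases 442 to 501: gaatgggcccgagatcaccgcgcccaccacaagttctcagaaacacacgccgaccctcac
Scd2, coding bases 451 to 510: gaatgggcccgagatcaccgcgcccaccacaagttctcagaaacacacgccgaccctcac
Actb, coding bases 889 to 948: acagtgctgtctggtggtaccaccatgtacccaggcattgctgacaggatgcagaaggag
Actg1, coding bases 898 to 957: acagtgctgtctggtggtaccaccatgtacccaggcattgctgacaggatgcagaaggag
Cox8a, coding bases 142 to 201: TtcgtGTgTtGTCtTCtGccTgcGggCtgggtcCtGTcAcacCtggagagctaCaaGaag
Cox8b, coding bases 139 to 198: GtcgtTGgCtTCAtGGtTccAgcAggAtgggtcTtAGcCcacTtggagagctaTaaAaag

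The Scd1 and Scd2 stretches are identical, as are those of Actb and Actg1, while Cox8a and Cox8b differ at 20 of the bases shown. Over the whole transcripts, the longest identical run was 147 bases for Scd1 and Scd2 and 62 bases for Actb and Actg1. Of the 76 pairs formed by the leading member of a family and the next, these were the 2 pairs that shared a run of 50 bases or more, and the median of the longest runs was 17 bases. Among all 619 pairs of members within families, 14 shared such a run, and the longest, 324 bases, lay in Stat5a and Stat5b. How the authors' counting treated reads that match more than 1 gene was not given in the sources used here, so the split within these pairs is uncertain by the reads from the shared runs.

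The libraries held 47341091, 40161501 and 34796944 counts over 27473 features. A single count on a feature of 1000 bases was worth 0.0631, 0.0726 and 0.0848 TPM in the libraries, so on short features levels under 1 TPM rest on few reads. Of 26341 gene symbols, 12450 had a mean of at least 1 TPM and count as expressed, 12095 of them in every library. At least 10 TPM were reached by 8658 genes, at least 100.0 TPM by 1824 and at least 1000 TPM by 110, while 7490 symbols had no count in any of the 3 libraries. Between pairs of libraries the log2 TPM of the 8658 genes correlated with r from 0.997 to 0.998, a description across genes that are not independent, and at most 7 of these genes differed by more than 2-fold. The SD was a median of 3.93% of the mean among them, and it was under 5% for 5634 genes and over 20% for 32.

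The pool of transcripts was concentrated in few genes. The 10 most abundant genes held 13.3% ± 0.405 of the TPM (SD, n = 3), the first 100 held 30.05% ± 0.411, and 479 genes held 50% of it. The 110 genes at 1000 TPM or more took 31.0% of the TPM, the 1714 genes between 100.0 and 1000 TPM took 41.3%, and the 3792 genes between 1 and 10 TPM together took 1.58%. The median SD was 2.73% of the mean in the highest of these classes and 10.02% in the lowest. Levels of abundant genes thus varied less between libraries than those of scarce ones. The order of genes also depends on the lengths used, which this spread does not cover.

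The label of the cells was checked against marker genes. The 3 genes taken as defining markers of fat cells were abundant: Fabp4, the fatty acid carrier, reached 22413, 24662 and 23289 TPM in the 3 libraries. Adipoq, which encodes the hormone adiponectin, reached 4285, 4577 and 4437 TPM. Pparg, the master regulator of fat cell formation, reached 502, 515 and 502 TPM. Their means were 23455 ± 1134, 4433 ± 146 and 506 ± 7.83 TPM (SD, n = 3), and no library stood apart. Of 15 markers of mature adipocytes, 14 were expressed, 11 of them at 100.0 TPM or more, and together they made up 5.03% of the TPM. Next to the 3 genes above, the serine protease adipsin (Cfd) stood at 12084 ± 271 TPM, the lipid droplet protein Cidec at 2843 ± 50.3, lipoprotein lipase (Lpl) at 2309.7 ± 6.47, the fatty acid transporter Cd36 at 1676 ± 32.1 and the droplet coat protein Plin1 at 1429 ± 41.9. Hormone-sensitive lipase (Lipe, 513 ± 25.7 TPM), adipose triglyceride lipase (Pnpla2, 619 ± 40.6), the GLUT4 gene Slc2a4 (204 ± 10.4), the β3-adrenergic receptor (Adrb3, 95.2 ± 4.31), Cebpa (63.2 ± 3.55) and resistin (Retn, 58.2 ± 1.94) followed. The hormone leptin was the exception: Lep had 0.2904, 0.401 and 0.573 TPM, under the level that counts as expressed in every library.

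Markers of other cell types were low, with 1 or a few exceptions in most lists. All 8 endothelial markers were under 1 TPM, the highest being Pecam1 at 0.857 ± 0.0614. Of 11 macrophage and leukocyte markers in the table, Cd68 (14.5 ± 1.28 TPM), Cd14 (12.4 ± 0.349) and Lyz2 (1.41 ± 0.216) were expressed, while the macrophage marker Emr1 and the T cell marker Cd3e had no count in any library, and the summed level of the list was 28.9 to 30.9 TPM. Of 10 muscle markers 3 were expressed: the oxygen store myoglobin (Mb) stood at 128 ± 5.17 TPM, the skeletal actin Acta1 at 8.35 ± 0.721 and the creatine kinase Ckm at 1.49 ± 0.272, and the myogenic factor Myod1 had no count. Of 10 hepatocyte markers, Cyp2e1 stood at 10.7 ± 1.52 TPM, and albumin (Alb), Ttr, Apoa2 and Fgb had no count. The highest neuronal marker was Snap25 (1.67 ± 0.313 TPM) and the highest of bone and cartilage Comp (17.7 ± 0.785 TPM).

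RNA of fibroblast markers was present, and the brown fat markers were split. Of 12 markers of preadipocytes and fibroblasts, 10 were expressed, led by the fibrillar collagen Col3a1 (2095 ± 69.8 TPM) and followed by Col1a1 (138 ± 10.7), the growth factor receptors Pdgfrb (107 ± 7.86) and Pdgfra (76.2 ± 4.24) and the transcription factor Prrx1 (78.6 ± 1.95). Dlk1 (Pref-1), an inhibitor of differentiation that preadipocytes lose as they mature, stood at 9.09 ± 0.855 TPM. Gata3 was barely expressed, at 1.32 ± 0.0905 TPM. The markers of this list that were not expressed were Cd34 (0.624 ± 0.113 TPM) and Gata2 (0.238 ± 0.154). Of 11 brown adipocyte markers, 5 were expressed, a share near the 47.3% of all symbols. The oxidase subunits Cox8b (567 ± 18.2 TPM) and Cox7a1 (209 ± 8.57) were high, the coactivator Ppargc1a stood at 33.5 ± 0.3803 and the droplet protein Cidea at 19.2 ± 1.31, whereas Ucp1, the uncoupling protein that makes heat in brown fat, was at 0.0569 ± 0.0681 TPM, from 1, 3 and 0 counts, and the brown fat regulator Prdm16 at 0.0327 ± 0.00724. The other 4 that were not expressed, Zic1, Elovl3, Dio2 and Lhx8, were under 0.3 TPM. All 9 cell division markers were expressed, Plk1 at 65.004 ± 3.89 TPM, Cdk1 at 18.9 ± 1.07 and Mki67 at 4.16 ± 0.0478. RNA from a minority of undifferentiated or dividing cells and a low level in every cell cannot be told apart in bulk RNA.

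**Figure D1:**
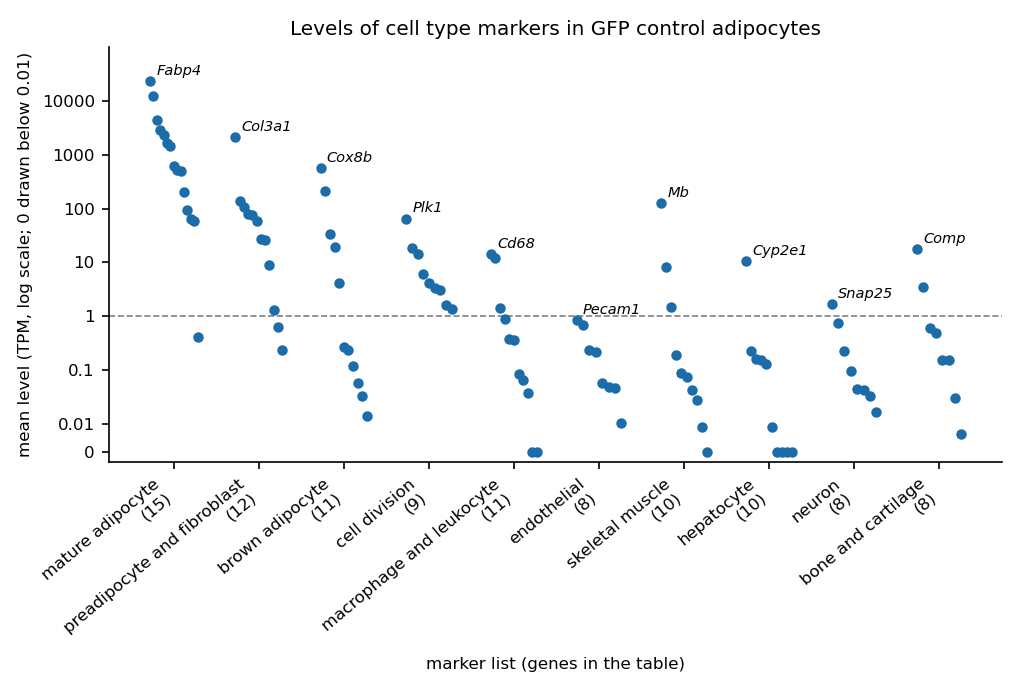
Mean level of each marker gene in the 3 GFP libraries (TPM, log scale), 1 point per gene, by marker list, with the number of genes in the table and the name of the highest gene. The dashed line is 1 TPM. Of the 15 mature adipocyte markers, 14 lie at 58.2 TPM or more and Lep below the line, and all 8 endothelial markers lie below it.

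The list of most abundant features was led by fat cell genes and by features that carry a sequence accession in place of a gene symbol. DQ539915 had the highest level, 27074, 29672 and 29930.5 TPM in the libraries, and AK018753 and AK140265 were also among the first 10. These names are labels of the annotation, and no gene was assigned to them. Accession-named features made up 6.53% of the TPM. AK018753 was at 16292, 17652 and 12512 TPM and AK140265 at 6319.5, 6606 and 4427 TPM, both lowest in replicate 3.

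Among features with a gene symbol, Fabp4 came first and Scd1, the desaturase that makes oleate from stearate, second, with 17494, 16959 and 17377 TPM in the libraries. Every library had Fabp4 above Scd1 and Scd1 above Cfd (11782, 12165 and 12305 TPM). The order rests on dividing by length: by CPM, Scd1 came first of all features and Fabp4 at rank 7, and the 25 highest features by the 2 measures had 12 in common. The translation factor Eef1a1 (8218 ± 136 TPM), a feature of 690 bases labelled Cox2 (7813 ± 683), the nuclear noncoding RNA Malat1 (6725 ± 111), the glycolytic enzyme Aldoa (4496 ± 43.6) and Adipoq (4433 ± 146) followed. Cytoskeletal actin (Actb, 3834 ± 53.2 TPM), the ATP synthase subunit Atp5b (3739 ± 84.6) and the light and heavy chains of the iron store ferritin (Ftl1, 3629 ± 79.6; Fth1, 2732 ± 164) were at a similar level. Next in the list stood Mdm2, which encodes the ubiquitin ligase that controls p53 (3398 ± 17.5 TPM).

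The rest of the 25 most abundant features were metabolic, secreted or chaperone genes. The metabolic ones were Ldha (3285 ± 25.3 TPM), which makes lactate, Cidec (2843 ± 50.3), Gpd1 (2780.2 ± 163), which makes the glycerol backbone of triglyceride, and Pgk1 (2639 ± 56.6) of glycolysis. They also held the mitochondrially encoded mt-Nd4 (2439.6 ± 199 TPM), the secreted protease inhibitor Cst3 (2636 ± 60.4), the matrix protein Sparc (2426 ± 93.9), Lpl (2309.7 ± 6.47) and the chaperone Hsp90ab1 (2304 ± 135). The last places are close: the libraries of Hsp90ab1 overlapped in level those of Lpl and of Sparc, and the libraries of Cst3 overlapped those of Pgk1. Features under 300 bases and structural RNAs, which are poorly measured per length, made up 1.43% of the TPM and were kept apart. Of these, the highest were Mir715 (a feature of 110 bases, 6415 ± 155 TPM), the RNA of RNase MRP (Rmrp, 3419.9 ± 345) and that of RNase P (Rpph1, 1674 ± 144).

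**Figure D2:**
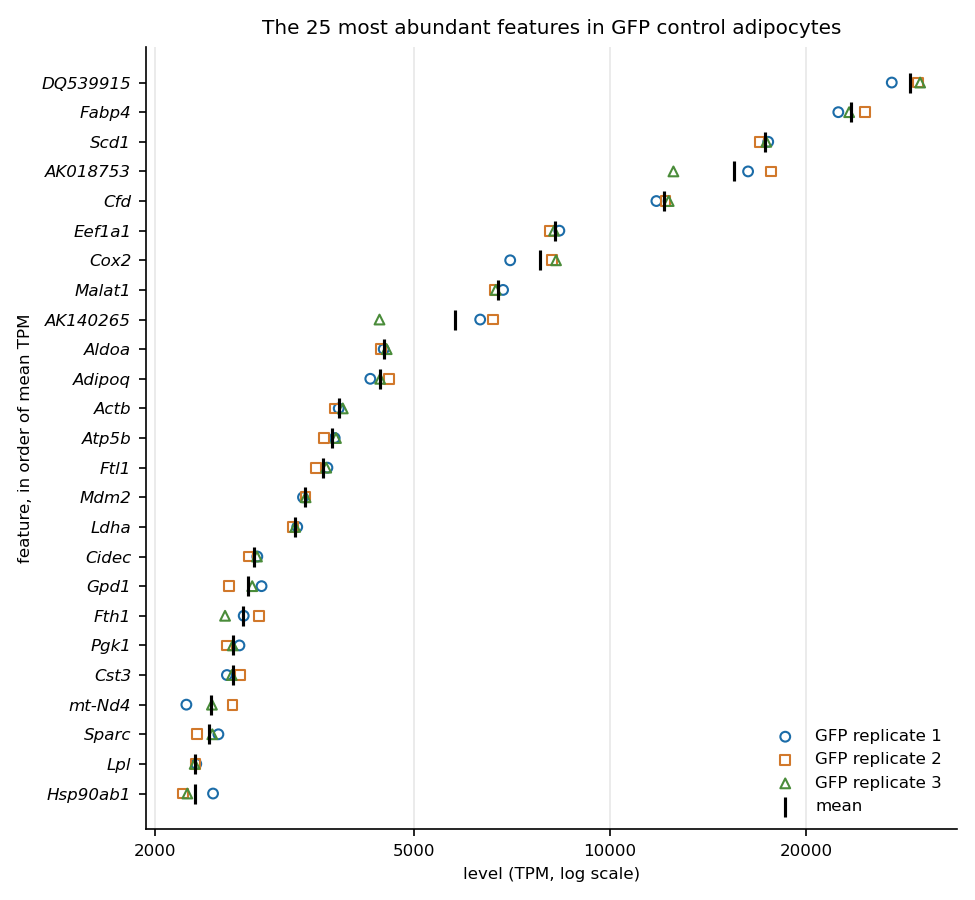
Level (TPM, log scale) of the 25 most abundant features of at least 300 bases in each GFP library; open symbols are the 3 libraries and black ticks their mean. Fabp4 and Scd1 lead the features with a gene symbol, and AK018753 and AK140265 are lowest in replicate 3.

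Among the lists of genes grouped by function, ribosomal proteins and oxidative phosphorylation held the highest shares of the TPM. The 78 cytosolic ribosomal proteins made up 5.00% of the TPM, with 75 expressed and a median of 479 TPM, against a median of 0.6505 TPM and 47.3% expressed over all 26341 symbols. Rplp1 (2129.7 ± 77.3 TPM), Rpl9 (2098 ± 53.2), Rplp0 (1887 ± 73.4) and Rps4x (1597 ± 57.2) were the highest, and the testis paralog Rpl10l had no count. The 81 genes listed for oxidative phosphorylation made up 3.67% of the TPM, with 77 expressed. They were led by Atp5b, Cox4i1 (1602 ± 29.1 TPM), Atp5a1 (1496 ± 55.4) and Cox8a (1423 ± 63.8), and the testis form Cox8c had no count. Neither the mitochondrially encoded mt-Nd4 (2439.6 ± 199 TPM) nor the feature labelled Cox2 (7813 ± 683) was in this list. All 69 mitochondrial ribosomal proteins were expressed, from 14.5 ± 0.354 TPM for Mrpl13 to 324 ± 3.68 for Mrps6, and together took 0.587% of the TPM.

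Of 18 lipogenic genes in the table, 17 were expressed and together they took 3.00% of the TPM. Scd1 was followed by Gpd1, by the acyltransferase Agpat2 (2252 ± 23.6 TPM) and by Mgst1 (1965 ± 111), a microsomal glutathione transferase of that list. Fatty acid synthase (Fasn) stood at 878 ± 75.4 TPM, the citrate carrier Slc25a1 at 975 ± 49.5 and ATP citrate lyase (Acly) at 461 ± 19.9. The lowest was Mlxipl, the glucose-responsive factor ChREBP, at 0.651 ± 0.0688 TPM. The 12 glycolytic genes took 1.58% of the TPM, led by Aldoa, Ldha, Pgk1 and Pgam1 (1986 ± 34.4 TPM), with the muscle phosphofructokinase Pfkm lowest at 0.786 ± 0.221.

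Of 20 lipolysis and droplet genes, 16 were expressed and took 1.06% of the TPM. Cidec was followed by G0s2 (1657 ± 29.2 TPM), the inhibitor of adipose triglyceride lipase, which was above its target Pnpla2 (619 ± 40.6) in every library, and by Plin1 and Plin4. Abhd5, the activator of the same lipase, stood at 97.7 ± 0.695 TPM and monoglyceride lipase (Mgll) at 41.2 ± 1.48. All 19 fatty acid oxidation genes were expressed (0.695% of the TPM), with Ech1 (962 ± 0.992 TPM), Acadm (872 ± 12.3), Etfb (751 ± 13.5) and Hadhb (636 ± 8.89) highest and Cpt1b (3.42 ± 0.149) lowest. All 15 citric acid cycle genes were above 100.0 TPM, from Dlst (135 ± 3.78) to Mdh2 (839.7 ± 30.04), a narrower range than in any other list of metabolic genes here.

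Of 26 genes of the extracellular matrix, 25 were expressed, and they made up 1.41% of the TPM. Sparc and Col3a1 were followed by the basement membrane collagen Col4a1 (1650.3 ± 88.5 TPM) and the proteoglycan Bgn (1639 ± 58.9), with Col6a1 at 1543 ± 102. Of 41 collagen chains, 22 were expressed, a share not far from the 47.3% of all symbols, and 9 reached 100.0 TPM. Gene families best known from other organs had few expressed members, and whether their levels are background was not tested. Of 1091 olfactory receptors 4 were expressed, the highest Olfr56 at 9.67 ± 0.172 TPM. Of 304 vomeronasal receptors 3 were, the highest Vmn1r58 at 7.54 ± 0.528. Of 45 keratins 6 were expressed, and Krt79 was the highest at 27.8 ± 0.436 TPM.

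For 77 families, 303 members were in the table. Most were listed as paralogs, but some families join genes of like name or function that are not. Dgat1 and Dgat2, for example, are unrelated, and such families are part of the counts below. Of these, 212 were expressed, 44 were under 0.1 TPM and 21 had no count in any library, where 3 counts would have been 0.0407 to 0.657 TPM at most, depending on the length of the feature. In 68 of the 76 families with at least 2 members in the table, a single member held 50% or more of the family's TPM, in 39 it held 75% or more, and in 22 it held 90% or more. With 3 libraries, an exact paired permutation test between members cannot go below p = 0.25, so none was run, and members are described as apart where every library of one lay above every library of the other. The leading member was apart from the next in 71 of 76 families, and 192 of the 226 pairs of neighbours in the order were apart. By the deposited lengths, the libraries of the leading member and the next overlapped in the other 5 families. These pairs included Plin1 and Plin4, Slc2a4 and Slc2a1, Eno2 and Eno3, and Cox7a2 and Cox7a2l. The rule for members that are apart sets aside their pairing within a library. Within each library, Plin1 was above Plin4, Slc2a4 above Slc2a1 and Eno2 above Eno3. Of the 315 members listed, those outside the 303 were not analysed here, and shares are of the members that were. The enolases are such a family: only 2 of 4 members were analysed, and Eno2 (13.9 ± 0.899 TPM) and Eno3 (13.02 ± 0.6002) were low beside Aldoa.

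**Figure D3:**
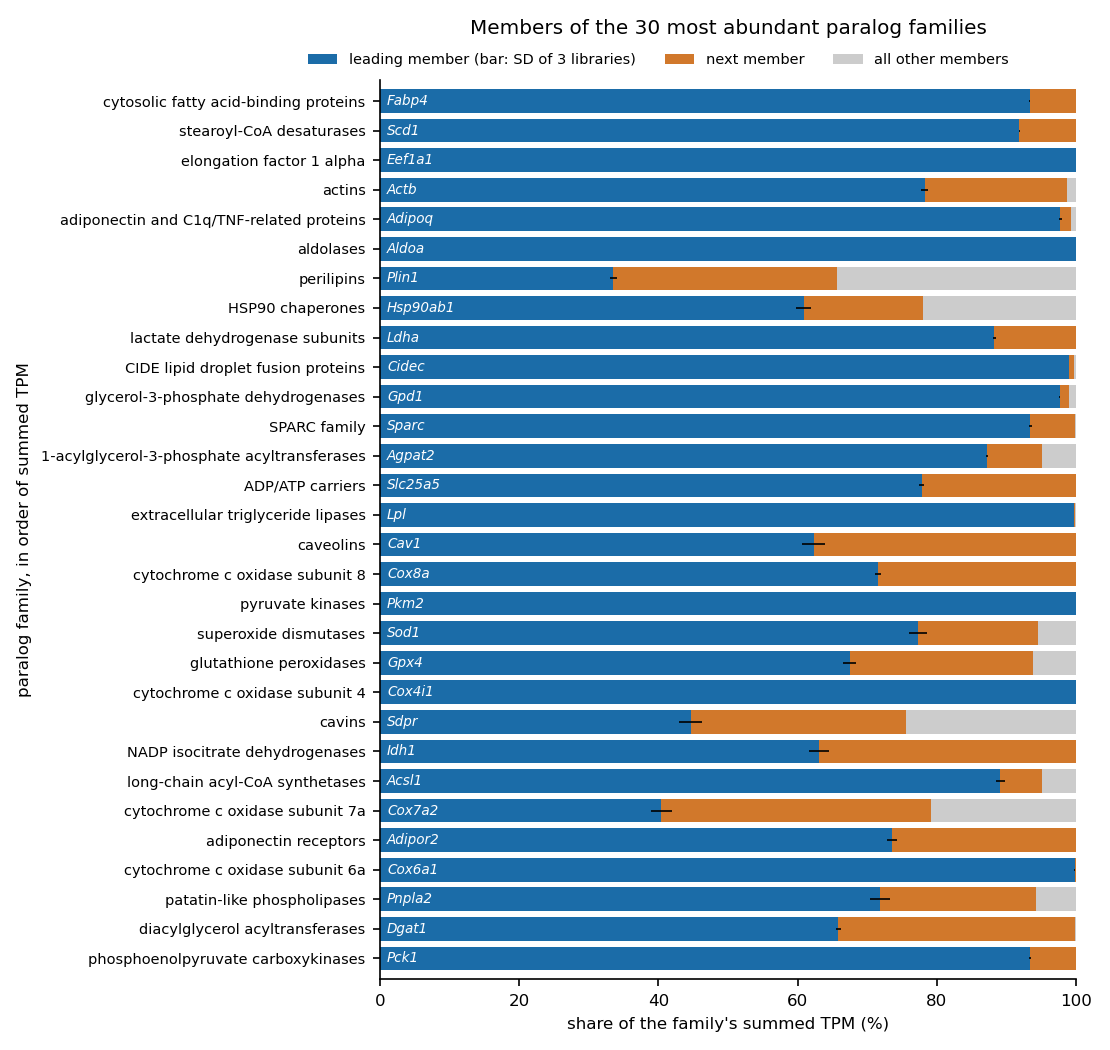
Share of each family's summed TPM (%) held by its leading member (blue, named), the next member (orange) and all other members (grey), as means of the 3 GFP libraries for the 30 families with the highest summed TPM; black lines are the SD of the leading share. Fabp4, Scd1, Cidec, Gpd1, Lpl and Aldoa each hold over 90%, and the perilipins, cavins and cytochrome c oxidase subunit 7a have no member over 50%.

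Families that bind, take up and activate fatty acids each rested on a single adipocyte form. Fabp4 held 93.3% ± 0.0342 of the TPM of 9 cytosolic fatty acid-binding proteins. Fabp5, the epidermal form, had 1609, 1763 and 1655 TPM and was 13.997-fold lower than Fabp4 (13.9 to 14.1-fold in the single libraries). The heart form Fabp3 was at 1.38 ± 0.321 TPM, and the liver, ileal and brain forms Fabp1, Fabp6 and Fabp7 had no count. Lpl, which frees fatty acids from lipoproteins, held 99.8% of the TPM of 5 extracellular lipases, the next being Lipg at 3.07 ± 0.409 TPM. Slc27a1, the insulin-responsive fatty acid transport protein, stood at 251 ± 12.7 TPM and held 84.95% of its family, ahead of Slc27a4 (39.6 ± 3.76), while the liver forms Slc27a2 and Slc27a5 were under 0.1 TPM. Acsl1 (1128 ± 47.2 TPM), which joins fatty acids to coenzyme A, held 89.2% of its family, ahead of Acsl3 (75.6 ± 0.814) and Acsl4 (61.5 ± 2.56).

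In the synthesis of fatty acids and triglyceride the share of the leading member varied from step to step. Scd1 held 91.9% ± 0.107 of the desaturase TPM, Scd2 had 1564, 1487 and 1512 TPM, and Scd3 (5.64 ± 0.629) and Scd4 (1.16 ± 0.0298) were low. Acaca, the cytosolic acetyl-CoA carboxylase, stood at 143 ± 7.12 TPM against 39.4 ± 2.82 for the mitochondrial form Acacb. Of the elongases, Elovl5 (123 ± 2.23 TPM), Elovl1 (73.3 ± 1.201) and Elovl6 (23.1 ± 1.43) were expressed, and the brown fat and skin form Elovl3 was at 0.235 ± 0.0566. Elovl5 led by the lengths in the files but not by those of the GENCODE transcripts, which put Elovl1 at 127 TPM. The glycerol-3-phosphate acyltransferases Agpat9 (103 ± 1.58 TPM) and Agpat6 (65.3 ± 5.02) were both expressed, in a family of which 3 of 4 listed members were analysed.

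At the next step Agpat2, the acyltransferase whose loss causes congenital lipodystrophy in people, held 87.3% of its family, with Agpat3 at 201 ± 4.501 TPM and 3 other members between 24.1 ± 1.51 and 72.1 ± 3.95. Lpin1, the phosphatase that follows, held 79.1%. Dgat1 (477 ± 15.3 TPM) and Dgat2 (247 ± 8.14), unrelated enzymes that complete triglyceride, were both high, and the monoacylglycerol enzymes Mogat1 and Mogat2 were under 1 TPM. For reducing power, the malic enzyme Me1 (176 ± 6.38 TPM) was ahead of Me2 (37.3 ± 2.15), and Idh1 (893 ± 23.5) of Idh2 (523 ± 20.6). Gpd1 held 97.7% of its family, and Pck1, which makes glycerol-3-phosphate from pyruvate in fat, held 93.4% of its own, with 641 ± 32.7 TPM against 45.4 ± 1.13 for the mitochondrial Pck2.

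On the lipid droplet, 3 perilipins shared the family. Plin1, which gates lipolysis, had 1461, 1381 and 1444 TPM in the libraries, Plin4 had 1438, 1256 and 1416 and Plin2, the coat of small droplets, had 1338, 1279 and 1349.7. By the deposited lengths, the libraries of Plin1 and Plin4 overlapped, and so did those of Plin4 and Plin2. Within each library Plin1 was above Plin4, while the order of Plin4 and Plin2 changed between libraries. GENCODE lengths put Plin1 at 2119 TPM and Plin4 at 1622 TPM. Plin3 was lower, at 144 ± 3.36 TPM, and Plin5, the form of oxidative tissues, was at 0.767 ± 0.166. Cidec held 99.01% ± 0.0439 of the CIDE family, which fuses droplets, against 19.2 ± 1.31 TPM for Cidea and 9.35 ± 0.531 for the liver form Cideb. Pnpla2 held 71.8% of the patatin-like lipases, followed by Pnpla8 (193 ± 2.36 TPM), while the adiponutrin gene Pnpla3 was at 2.23 ± 0.233. Aqp7, the channel through which fat cells release glycerol, held 77.0% of the aquaporins at 107 ± 4.21 TPM.

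**Figure D4:**
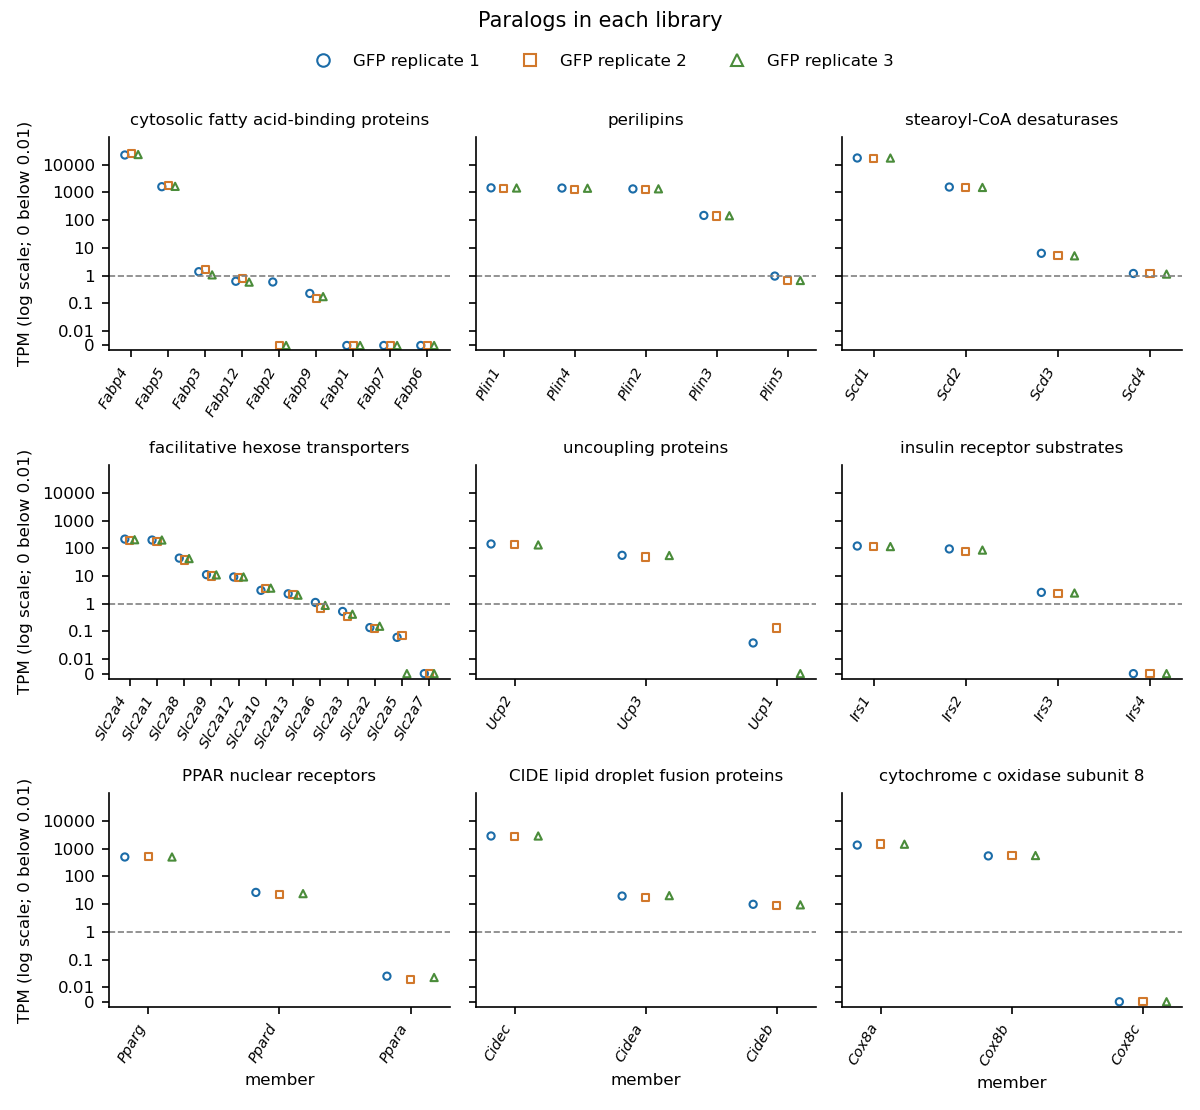
Level (TPM, log scale) of each member in each of the 3 GFP libraries for 9 paralog families; the dashed line is 1 TPM and values of 0 are drawn below 0.01. Fabp4, Scd1, Pparg and Cidec stand apart from the other members of their families, whereas Plin1 and Plin4, and also Slc2a4 and Slc2a1, overlap.

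Among the glucose transporters, a pair of genes shared most of the RNA. Slc2a4, which encodes the insulin-responsive GLUT4, had 214, 193 and 203 TPM. Slc2a1, which encodes the basal transporter GLUT1, had 198, 181 and 199 TPM. They held 43.8% and 41.5% of the family of 12. The ranges of their libraries overlapped, though Slc2a4 was above Slc2a1 within each library. The overlap rests on the deposited lengths: GENCODE lengths put Slc2a4 at 212 TPM and Slc2a1 at 161 TPM. Slc2a8 (41.4 ± 3.47 TPM), Slc2a9 (10.7 ± 0.607) and Slc2a12 (9.07 ± 0.267) followed, and the liver and intestinal forms Slc2a2 and Slc2a5 were under 1 TPM. Hk2, the insulin-regulated hexokinase of muscle and fat, held 79.7% of its family (194 ± 9.23 TPM against 43.4 ± 2.97 for Hk1). Pfkl held 80.5% of the phosphofructokinase TPM, ahead of Pfkp (112 ± 3.97 TPM), and the 4.16-fold lead shrank to 1.51-fold with GENCODE lengths, which put Pfkp at 295 TPM. Aldoa held nearly all of the aldolase TPM: the brain form Aldoc was at 0.849 ± 0.0809 TPM. Ldha held 88.3% against 436 ± 10.97 TPM for Ldhb, and the liver and red cell pyruvate kinase Pklr had no count beside 1803 ± 88.8 TPM for Pkm2.

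At the entry to mitochondrial oxidation, Pdk1 (196 ± 2.36 TPM) led the kinases that switch off pyruvate dehydrogenase, and Pdk4, which fasting induces, was lowest at 12.4 ± 0.446. Cpt1a, the liver form of the enzyme that admits fatty acids to mitochondria, held 93.6% of its family at 96.05 ± 3.01 TPM, while the muscle form Cpt1b was at 3.42 ± 0.149. Ucp2 (136 ± 5.82 TPM) and Ucp3 (53.02 ± 3.85) made up nearly all of the uncoupling protein TPM. Slc25a5 (1981 ± 31.9 TPM) was ahead of Slc25a4 (564 ± 10.01) among the ADP/ATP carriers.

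Of the oxidase subunits with tissue forms, the general form led by far in subunits 4 and 6a and less so in 8. Subunit 7a had no clear leader. Cox4i1 held nearly all of the subunit 4 TPM, with the lung form Cox4i2 at 0.655 ± 0.351 TPM, and Cox6a1 (917 ± 28.3 TPM) held 99.8%, with the heart and muscle form Cox6a2 at 1.93 ± 0.206 (12.3 with the GENCODE length). Cox8a had 1349.7, 1467 and 1452 TPM and the muscle and brown fat form Cox8b had 549, 585 and 566, which made 28.5% of the family. Cox7a2 (407 ± 30.5 TPM) and Cox7a2l (391 ± 3.22) overlapped, and the muscle form Cox7a1 stood at 209 ± 8.57. The feature of Cox8b has 363 bases, and taking 200 bases off every length, which allows for the ends of fragments, raised it to 1084 TPM.

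In the insulin pathway, Insr had 58.7, 54.8 and 56.2 TPM and held 87.3% of its family, ahead of the IGF1 receptor (Igf1r, 8.14 ± 0.339 TPM), a 6.95-fold lead that shrank to 2.34-fold with GENCODE lengths. Irs1 (116 ± 4.26 TPM) was apart from Irs2 (85.2 ± 9.78) by the deposited lengths. GENCODE lengths brought their means closer, to 98.6 and 89.2 TPM. The rodent-specific Irs3 was at 2.46 ± 0.0906 TPM and Irs4 had no count. Pik3ca held 85.4% of the class I catalytic subunits (44.8 ± 0.772 TPM), and the leukocyte forms Pik3cd and Pik3cg were under 1 TPM. Of the regulatory subunits, Pik3r2 (p85β, 115 ± 7.35 TPM) led Pik3r3 (55.3 ± 0.173) and Pik3r1 (55.1 ± 0.743). Akt2, the isoform that drives glucose uptake in fat, had 405, 372 and 393 TPM and held 66.2%, against 186, 169 and 188 TPM for Akt1. Of the Akt substrates that hold back GLUT4, Tbc1d1 (30.6 ± 0.571 TPM) was above Tbc1d4 (AS160, 22.3 ± 1.03) in every library. This 1.37-fold lead shrank to 1.11-fold with GENCODE lengths. Of the 23 genes measured in insulin signalling and GLUT4 traffic, 22 were expressed, the storage vesicle proteins Sort1 at 215 ± 7.46 TPM and Lnpep (IRAP) at 97.2 ± 1.78, and Tsc2 had no count.

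The cAMP pathway opposes insulin in fat cells. Adrb3 held 99.9% ± 0.0738 of the TPM of the β-adrenergic receptors, with 100.0, 93.9 and 91.7 TPM in the libraries, while Adrb1 had no count, where 3 counts would have been 0.102 TPM at most. Prkar2b, the regulatory subunit of protein kinase A typical of fat, held 65.3% of its family (303 ± 8.1998 TPM), ahead of Prkar1a (119 ± 5.23). Prkaca (192 ± 3.49 TPM) was ahead of Prkacb (64.1 ± 1.18) among the catalytic subunits. Pde3b, the phosphodiesterase through which insulin blocks lipolysis, held 99.8% beside the cardiovascular form Pde3a (0.0903 ± 0.0339 TPM). In AMPK, the energy sensor, Prkaa1 held 98.4% of the catalytic and Prkag1 93.3% of the γ subunits, and Prkab1 (43.9 ± 0.515 TPM) and Prkab2 (29.8 ± 1.81) were both expressed.

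Among nuclear receptors, Pparg held 95.4% ± 0.404 of the PPAR TPM, with Ppard at 24.3 ± 1.95 TPM and the liver form Ppara at 0.0223 ± 0.00293. Rxra (119.8 ± 7.46 TPM), the partner of PPARγ, was ahead of Rxrb (40.1 ± 2.99) and Rxrg (17.3 ± 0.754), and Nr1h3 (LXRα, 218 ± 1.96) of Nr1h2 (47.7 ± 4.71). Of the 21 adipogenic transcription factors measured, 18 were expressed. After Pparg came the glucocorticoid receptor Nr3c1 (219 ± 4.31 TPM), Nr1h3 and Rxra, and Prdm16 was the lowest. Of the genes grouped here by a Cebp symbol, Cebpg had 185 ± 3.07 TPM, and Cebpa (63.2 ± 3.55) and Cebpz (59.02 ± 1.91) overlapped. Within each library Cebpa was above Cebpz. Cebpb and Cebpd were not analysed here. Ppargc1a was apart from Ppargc1b (17.5 ± 1.02 TPM), and Ebf1 (39.3 ± 1.83 TPM) from Ebf3 (13.2 ± 0.559) and Ebf2 (4.11 ± 0.381).

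Of 19 secreted proteins of fat cells in the table, 13 were expressed, together 1.92% of the TPM. Cfd and Adipoq were followed by Angptl4, an inhibitor of lipoprotein lipase (1029 ± 30.5 TPM), angiotensinogen (Agt, 496 ± 12.3) and Nampt (419 ± 14.5), and Vegfa stood at 309 ± 8.57. Adipoq held 97.8% of its family, and the next member, Fam132a, was at 69.6 ± 4.73 TPM. Retn held 99.1% of the resistin family. Of the receptors for adiponectin, Adipor2 had 717, 705 and 707 TPM and Adipor1 251, 249.9 and 265, a 2.78-fold difference that was larger than the spread between libraries and grew to 5.89-fold with GENCODE lengths. Retinol-binding protein (Rbp4, 0.0218 ± 0.0377 TPM), vaspin (Serpina12, 0.0142 ± 0.0124), which was the lowest of the list, and Lep are fat hormones in the animal that were under 1 TPM here.

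Members that shape the cell surface were expressed at high level. Cav1 (1255 ± 28.8 TPM) and Cav2 (760.2 ± 58.9), which form caveolae, were both abundant, and the muscle form Cav3 had no count. The cavins Sdpr (707 ± 24.6 TPM), Ptrf (491 ± 24.2) and Prkcdbp (383 ± 10.8) were within 2-fold of each other, and the muscle form Murc was at 3.66 ± 0.366. Actb held 78.2% of the actin TPM and Actg1 was at 1001 ± 21.8 TPM. The smooth muscle actin Acta2, which marks contractile fibroblasts, stood at 56.3 ± 3.198 TPM. Sparc held 93.5% of its family, Sparcl1 being next with 165 ± 2.66 TPM.

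Among stress defences, the cytosolic superoxide dismutase Sod1 (1367 ± 89.1 TPM) was ahead of the extracellular Sod3 (305 ± 8.796) and the mitochondrial Sod2 (96.1 ± 2.005). Gpx4, which protects membrane lipids, held 67.5% of the glutathione peroxidases, ahead of Gpx1 (462 ± 1.45 TPM). Mt1 held 95.3% of the metallothioneins, and Mt2 varied between libraries, with 14.97, 24.01 and 17.4 TPM.

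The series was made to alter Dnmt3a, which sets new DNA methylation, and the GFP cells give its level without the change. Dnmt3a had 24.9, 23.5 and 25.7 TPM in the libraries, 24.7 ± 1.07 on average, and held 45.6% of its family. The maintenance enzyme Dnmt1 had 20.9, 19.7 and 20.5 TPM, below Dnmt3a in every library by the deposited lengths. With GENCODE lengths the means were closer, 24.35 TPM for Dnmt3a and 22.99 TPM for Dnmt1. Dnmt3b was at 1.402 ± 0.0623 TPM and the cofactor Dnmt3l at 0.231 ± 0.1099. Of the TET dioxygenases, which remove the mark, Tet2 (23.5 ± 0.602 TPM) and Tet3 (19.9 ± 0.883) were expressed and Tet1 was at 0.708 ± 0.0408. The hormone Fgf21 was scarce: 5, 11 and 3 counts gave 0.333, 0.843 and 0.269 TPM. A level from so few counts is poorly measured, and 3 counts would have been 0.269 TPM at most. Of the receptor parts for Fgf21, Fgfr1 (165 ± 9.47 TPM) and the co-receptor Klb (β-klotho, 37.1 ± 2.09) were expressed. Fgfr4, the receptor of the liver, was not, at 0.00651 ± 0.0113 TPM. The receptor-like Fgfrl1, which has no kinase, stood at 286 ± 13.1 TPM.

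Some widely used genes were low. The authors modified the annotation to reduce overlaps, and how reads on shared bases were treated was not given. The tumour suppressor Tsc2 had no count in any library, Timp3 was at 0.209 ± 0.0846 TPM, the seipin gene Bscl2 at 1.53 ± 0.368 and Stat5b at 1.29 ± 0.145 beside 71.8 ± 4.07 for Stat5a, with which it shares the identical run of 324 bases. The glycolytic enzyme Gapdh was at 249.9 ± 2.87 TPM, 17.99-fold under Aldoa. The part of the counting in these levels was not tested, and a gene listed at 0 is not shown to be silent. The lengths in the files also matter: of the 12450 expressed genes, 10904 had a coding transcript in GENCODE, and the file's length was within 1.2-fold of it for 58.2%, over 2-fold longer for 11.6% and over 2-fold shorter for 1.88%. For Lpl the file gave 10004 bases against 4115 in GENCODE, which would put Lpl at 4764 TPM. Cidec would stand at 5279 TPM, Lipe at 983, Akt2 at 241, Agpat2 at 1431 and Sod3 at 148. For Mb the file gave 4611 bases against 1106.

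A few genes differed between the libraries far more than others of their level. Of 8321 genes of at least 10 TPM with a gene symbol and no structural RNA, Lars2, the mitochondrial leucyl-tRNA synthetase, had the highest SD relative to its mean, with 10.999, 42.7 and 140.3 TPM in the libraries. Zbtb8os (10.99, 18.03 and 9.503 TPM), Tmem170 (16.8, 19.8 and 31.8), Hist1h2ak (7.86, 12.4 and 14.02) and Mt2 came next. Lars2 and Tmem170 were highest in replicate 3, where AK018753 and AK140265 were lowest. The steadiest genes were the adaptor Appl1 (26.7 ± 0.00444 TPM), the lipid kinase Pikfyve (51.4 ± 0.0212), the actin regulator Vasp (57.7 ± 0.0559), Ech1 (962 ± 0.992) and Pmvk (142 ± 0.147) of mevalonate metabolism. With 3 libraries such extremes are picked from many genes, and the SD of any single gene is itself uncertain.

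**Figure D5:**
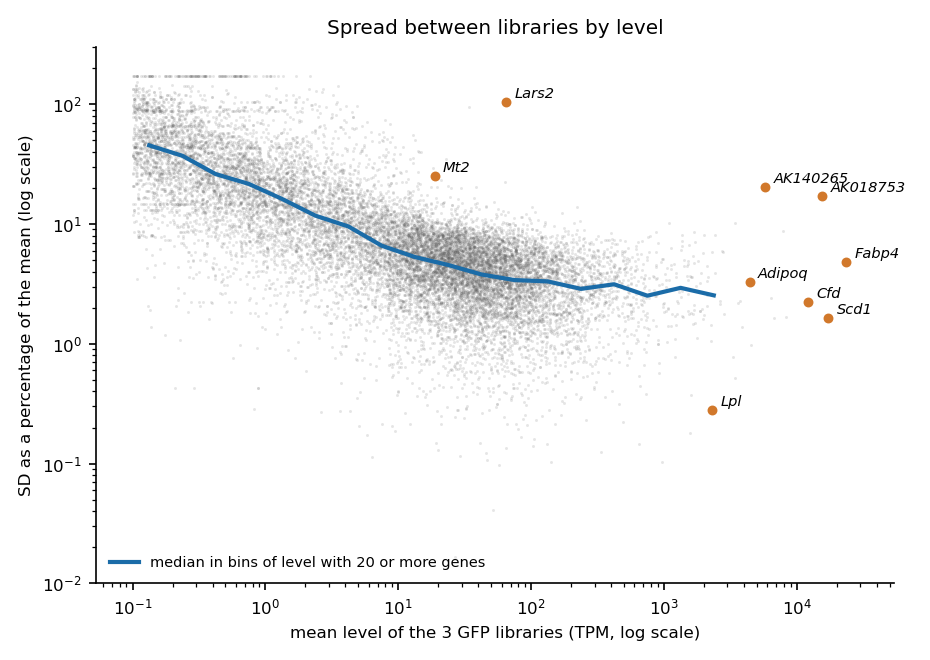
SD between the 3 GFP libraries as a percentage of the mean (log scale) against mean level (TPM, log scale) for genes of at least 0.1 TPM; grey points are genes, the blue line is the median in bins of level with 20 or more genes, and named genes are orange. The spread falls as the level rises, and Lars2, Mt2, AK018753 and AK140265 lie far above the line.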

How the data were processed

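RNA-seq of 3T3-L1 adipocytes given GFP was described (3 libraries, grouped by title, of 12 in the series). The authors used a Ribo-Zero kit against ribosomal RNA, a TruSeq kit for the libraries and a HiSeq2500 for sequencing. The submitters' processing notes name the mm9 build and the tools TopHat2 (version 2.0.14), SAMtools (0.1.19), Picard (2.2.4) and featureCounts (1.4.6), the last of which assigned reads to an annotation altered to lessen overlaps. The sources used here do not give the read length, the strand setting or the treatment of reads that match several places. What the authors deposited are whole-number counts per feature, not normalized, beside each feature's length.

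TPM were computed from the counts and those lengths over all 27473 features. The 789 symbols with more than 1 feature were represented by the feature with the highest mean count. Values are the mean ± SD of the 3 libraries, and no test was run. The TPM script was tested on simulated data. Totals of 34796944 to 47341091 counts set the precision, and floors of 3 counts cover counting error only. Between-library factors (TMM and RLE, edgeR 4.0.16, R 4.3.3) served as alternatives. Positions, transcript lengths and transcript sequences came from GENCODE vM1 (NCBIM37, the same assembly as mm9), matched by symbol.

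The libraries, families and gene lists were chosen with earlier results of these data known. Named genes were the 25 features with the highest mean TPM (at least 300 bases, no structural RNA), the leading 2 members of each family, every mature adipocyte marker, the highest member of each other marker list, the highest 4 and the lowest member of each functional list, and the 5 genes of at least 10 TPM with the highest and the lowest SD relative to the mean. Further members of the families and lists, and Tsc2, Timp3, Bscl2, Stat5b and Gapdh, were named after their values were seen. A few members of the families are not reported here. Alternatives covered the level that counts as expressed, the length, the features in the total, CPM in place of TPM, the scaling between libraries and each library left out.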

Additional observations from a re-analysis of the deposited data

How the results depend on the processing

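With 200 bases taken off every length, the 10 most abundant genes held 13.9% and the first 100 held 31.7% of the TPM. With CPM, which ignores length, the same shares were 11.8% and 26.0%, and 737 genes were needed to hold 50%. Alternatives chosen after seeing the data gave 10.2% and 27.1% without accession-named features, and 11.5% and 28.6% with GENCODE transcript lengths. A single member held at least 75% of its family in 39 families. Leaving out 1 library in turn gave 13.0 to 13.4% for the first 10 genes, 29.8 to 30.2% for the first 100, 474 to 487 genes for 50% of the TPM, 68 led families each time and 12428 to 12456 expressed genes. Expressed genes ranged from 11370 at 2 TPM to 13584 at 0.5 TPM, and the median SD was 3.91% of the mean after TMM scaling. The leading member stayed the same in 77 of 77 families under the other alternatives and with each library left out, in 76 with GENCODE lengths (Elovl1 in place of Elovl5) and in 70 with CPM, where Plin4, Pik3r1, Prkab2, Ptrf, Cox7a2l and Fgfr1 led instead of Plin1, Pik3r2, Prkab1, Sdpr, Cox7a2 and Fgfrl1, among others. Of 169 levels examined, 23 moved by more than 1.5-fold with GENCODE lengths, 16 up and 7 down, 1 (Cox8b) with 200 bases off and 1, under 1 TPM, without replicate 1. No paired analysis was possible because a single group was described and no test was run. Levels under 1 TPM on short features rest on few counts and are limited by depth.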

Other observations

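Mdm2, among the 25 most abundant features, lay beside another abundant gene. It had 3378, 3407 and 3409 TPM in the libraries (mm9 chr10:117125944-117147814, minus strand), and its neighbour Slc35e3 (chr10:117170735-117183414, minus strand), a putative nucleotide sugar transporter, had 1919.7, 1861 and 1856 TPM. Among 19203 protein-coding genes placed in order by RefSeq, they were the 1 pair of direct neighbours that were both among the 100 most abundant, that is, at 994 TPM or more. The genes on either side were at ordinary levels: Cpm stood at 9.21 ± 0.506 TPM, Cpsf6 at 37.3 ± 0.828, Nup107 at 31.4 ± 0.453 and Rap1b at 156 ± 4.796. Farther out, Cct2 and Cand1 were at 306 ± 2.91 and 81.9 ± 2.27 TPM. This pair was noticed after the values were seen, and no DNA copy number was measured.

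Of the long noncoding RNAs matched in RefSeq, Malat1 was far above the rest. BC037032 (275 ± 4.23 TPM), R74862 (217 ± 5.78) and 1700020I14Rik (171 ± 7.56) came next, and after them Tug1 and Gas5. The host of several small nucleolar RNAs, Gas5, stood at 94.96 ± 2.32 TPM and Tug1 at 116 ± 2.76.

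Genes best known from other organs were not all silent. The oxidase subunits Cox8b (567 ± 18.2 TPM) and Cox7a1 (209 ± 8.57) and the oxygen store Mb (128 ± 5.17), known from heart, muscle and brown fat, were above 100.0 TPM in each library, the muscle genes Acta1 and Ckm stood at 8.35 ± 0.721 and 1.49 ± 0.272 TPM, and Ucp1, Myod1 and the muscle myosins Myh1, Myh2 and Myh4 were under 0.2 TPM in each library.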
